A study of Mus musculus with 67 samples.

Results

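The 250 bins described here are the autosomal bins whose copy number level differed most between the 3 control embryos of a single-cell study of mouse embryos. They were chosen by their values: of 12274 autosomal bins listed, 12017 had a value in at least 10 DMSO cells, and for each of these the median over the cells of each DMSO embryo was taken and the range of the 3 medians computed. A bin without a value in over 50% of an embryo's cells was entered at -8 on the log2 scale. The 250 bins with the widest range formed 85 regions once adjacent bins were joined, of which 33 held 1 bin and 11 held at least 5 bins (110 bins together). The ranges and the order of the DMSO embryos are therefore a description of the choice and carry no test. The independent measure was the level of the same bins in embryos exposed to aphidicolin, which the choice did not use.

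The assay was scRepli-seq, in which the amplified DNA of a single cell is shallowly sequenced and the number of reads per stretch of chromosome stands for its relative amount of DNA. The cells were blastomeres of BDF1 embryos at the 8-cell stage, developed in culture in CZB medium from zygotes of superovulated females. During the 4-cell stage the embryos received either DMSO, the solvent, or 75 ng/ml aphidicolin, an inhibitor of the replicative DNA polymerases. DMSO 1, 2 and 3 contributed 4, 8 and 8 cells, and the 6 Aphidicolin embryos contributed 8 cells each apart from the last, which contributed 7, so that 67 cells of 9 embryos were used. BDF1 denotes F1 hybrids of C57BL/6 and DBA/2 mice; the labels do not say to which generation, parents or embryos, the name applies.

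Inbred mouse strains differ in copy number at many segments of the genome, often where near-identical sequences lie in clusters, and such segments are inherited like other alleles. Because all blastomeres of an embryo descend from 1 zygote, a segment that a parental haplotype lacks gives every cell the same level. Embryos of 1 cross can differ if a parent carries unlike haplotypes at the segment. In cells that have begun S phase, read density also carries replication timing, with early-replicating segments high and late-replicating segments low. The comparison therefore asked whether the Aphidicolin embryos took up discrete levels in the same bins.

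The values were log2 read densities relative to the median of the cell. Each bin is listed at a 200-kb step but stands for a 1-Mb window, so 5 neighbouring bins share reads and adjacent members are not separate measurements. Whole counts recovered from the values, summed over the windows and divided by their 5-fold overlap, came to a median of 2.26 M in the DMSO cells, with extremes of 1.47 and 2.83 M, and to 2.01 M in the Aphidicolin cells, with extremes of 0.739 and 2.65 M. The cells were set against a common profile of high and low bins, made by averaging the DMSO and the Aphidicolin medians. Its weight, the slope of a cell on that profile, ran from -0.13 to 1.38 over the cells and averaged between 1.10 and 1.28 in the DMSO embryos and between 0.35 (Aphidicolin 6) and 1.13 (Aphidicolin 4) in the Aphidicolin embryos.

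The range of the DMSO medians had a median of 0.57 among the members and 0.18 over all 12017 bins. The widest member, chr7:22400001-22600000 (mm9), lay at -0.01 in DMSO 1, -4.49 in DMSO 2 and -8 in DMSO 3, the last because most of its cells had no value there. The last bin inside the limit, chr7:8800001-9000000, had a range of 0.49 with medians of -0.50, -0.71 and -0.22. The first bin outside, chr1:131600001-131800000, also had a range of 0.49, so no gap separated members from other bins. The members thus held a small part with wide ranges and a long tail: 52 bins in 10 regions ranged over 1, 29 lay between 0.7 and 1, and 169 lay under 0.7.

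The members were unevenly spread over the genome. Chromosome 12 held 57 of them (22.8%) and chromosome 7 held 53 (21.2%), followed by chromosomes 6 and 14 with 30 each, and 1 of the 19 autosomes held none. In a set of 170 bins (1.41% of all) the recovered counts of all cells were whole multiples of a number of at least 3 that was particular to the bin, called its step here, for which the sources used here give no reason. Of the members, 66 (26.4%) had such a step, among them 36 of the 52 that ranged over 1, and 30 of the 50 bins with a step over 10 were members. A bin with a large step resolves low levels coarsely, because a cell can hold only a whole number of steps. Bins at the end of an unbroken stretch of the bins used were also more frequent, at 10 of 250 members (4%) against 0.416% of all bins.

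The members, wide and narrow together, had a common order of embryos. DMSO 2 was lowest in 181 members (72.4%, against 57.7% of all bins). DMSO 3 was highest in 159 (63.6%, against 46.9%). Of the 66 regions whose range stayed under 0.7, 40 ran from DMSO 2 through DMSO 1 to DMSO 3. No share over all bins stands beside this last count. Most members with a range under 0.7 were bins of low read density. Of the 169, 114 (67.5%) were among the 3004 of 12017 bins with the lowest common profile. The median of that profile was -0.35 over the 169 and 0.03 over all bins. The weight of the common profile was 1.28 in DMSO 2, 1.26 in DMSO 1 and 1.10 in DMSO 3. Its part in the order was not tested. In Aphidicolin 6, where the weight was lowest, the deposited median over these 169 members was -0.02, near the 0.02 of all bins.

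To compare the Aphidicolin embryos, the level of a bin was taken relative to its flanks, 2 Mb on either side beginning 1 Mb away. A cell whose flanks lay under -3 was left out. The range of the 6 Aphidicolin embryo levels had a median of 0.47 among members and 0.27 over all bins. It was over 1 in 47 members (18.8%) and in 69 of all bins (0.574%), so that 22 bins with such a range lay outside the members. All 5 bins that lacked a value in over 50% of the cells of an Aphidicolin embryo were members, as were both bins that did so in a DMSO embryo.

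**Figure D1:**
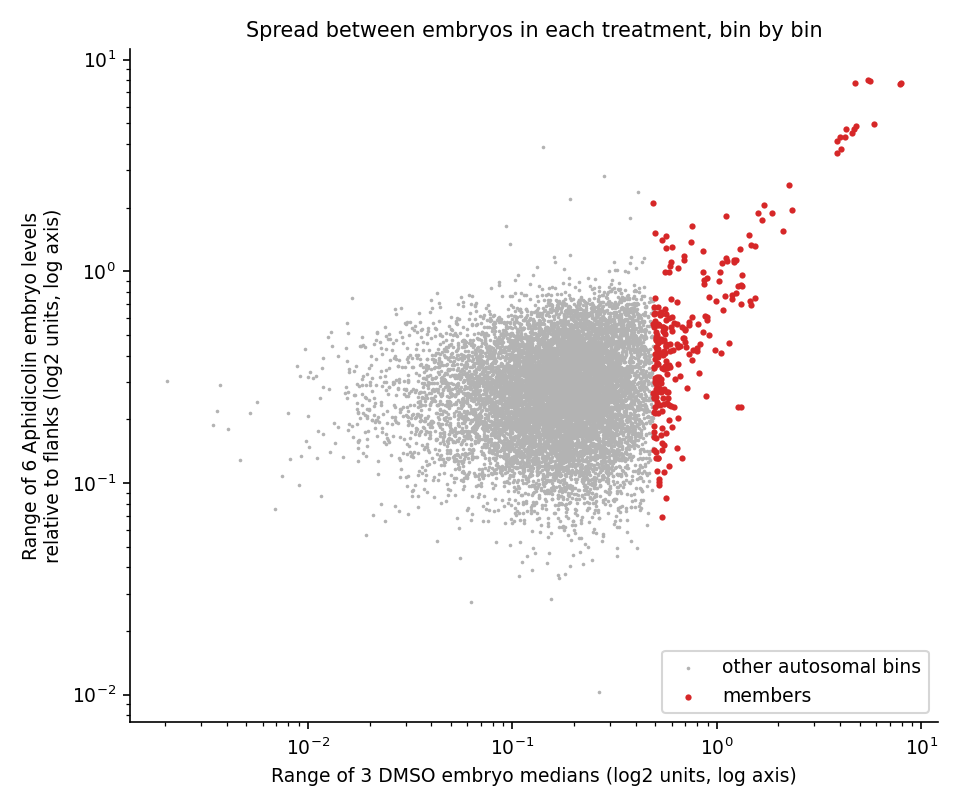
Each point is an autosomal bin, with the range of the 3 DMSO embryo medians on the horizontal axis and the range of the 6 Aphidicolin embryo levels relative to flanks on the vertical axis, both in log2 units on log axes; members are red and other bins grey. Members were chosen on the horizontal axis, and 47 of them exceed a range of 1 on the vertical axis, against 69 of all 12017 bins.

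The bin-by-bin plot of both ranges shows the members as the right-hand edge of 1 cloud, with a separate group at the top right. That group comes from the chromosome 7 regions described next.

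Levels between Aphidicolin embryos were tested with limma's moderated F-test on values relative to a local baseline, with the weight of the common profile as a covariate and Benjamini-Hochberg adjustment over all 12017 bins. The cells of an embryo were the samples, so the p-values set embryo differences against the spread between cells of 1 embryo. Of the 250 members, 154 (61.6%) passed an adjusted p of 0.05, beside 20.7% of all bins. The share rose with the DMSO range: 50 of 52 members (96.2%) over 1, 24 of 29 (82.8%) from 0.7 to 1, and 80 of 169 (47.3%) under 0.7. Called bins were present in 43 of the 85 regions, and in 32 of these every bin was called. These region counts have no share over all bins beside them, and 33 of the 85 regions held 1 bin. Regions with a range under 0.7 made up 31 of the 43.

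The count depended on 1 embryo and on the baseline. Without Aphidicolin 5, 90 members (36%) were called, beside 2.26% of all bins. The members over 1 still gave 50 of 52, whereas those under 0.7 fell to 23 of 169 (13.6%). On the values as deposited, with no local baseline, 25 members (10%) were called, beside 0.258% of all bins, of which 22 ranged over 1 and 1 under 0.7.

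**Figure D2:**
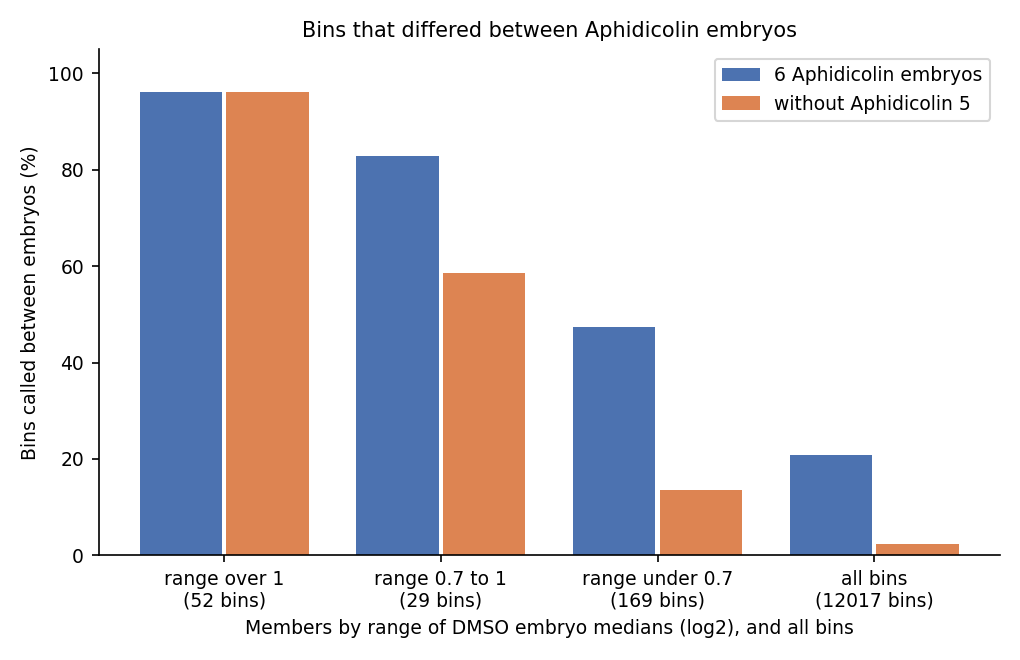
Bars give the percentage of bins that passed an adjusted p of 0.05 between Aphidicolin embryos (limma), for members split by the range of their DMSO medians and for all bins, with all 6 embryos (blue) and without Aphidicolin 5 (orange). The share stays at 96.2% for members over 1 and drops from 47.3% to 13.6% for those under 0.7.

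The bar plot of called bins separates the wide members, whose calls held in either fit, from the narrow ones. The narrow members had an order in the Aphidicolin embryos too. Aphidicolin 5 was the lowest of the 6 in 86 of the 169 (50.9%, against 29.6% of all bins) and Aphidicolin 6 the highest in 80 (47.3%, against 28.1%). Their medians relative to the local baseline were -0.37 in Aphidicolin 5 and -0.03 in Aphidicolin 6, with the other 4 embryos between -0.28 and -0.10. Aphidicolin 6 also had the lowest weight of the common profile, 0.35, whereas Aphidicolin 5, at 0.95, was not at the other end. The part of the common profile in these calls, beyond its use as a covariate, was not tested.

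The largest differences lay in 3 regions of chromosome 7 within 14 Mb. The proximal region, chr7:21000001-22800000, held 9 bins and the middle one, chr7:23000001-23600000, held 3. The bin between them was either not listed or had values in fewer than 10 DMSO cells. The distal region, chr7:32400001-34800000, held 12 bins. Levels are given for the cores where the DMSO medians ranged over 3, which are 8 bins (chr7:21200001-22800000), all 3 bins, and 4 bins (chr7:32800001-33600000). The proximal and distal cores lie 10.0 Mb apart, with bins outside the members between them.

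At the proximal core DMSO 1 stood at -0.16 relative to its flanks (4 cells between -0.42 and 0.02), DMSO 2 at -4.40 (8 cells, -6.55 to -4.01) and DMSO 3 at -5.12 (8 cells, -8.01 to -4.54). DMSO 1 thus kept 89.6% of the flanking read density, and the others 4.73% and 2.89%. The medians of the Aphidicolin embryos, which had no part in the choice, lay at the same high and low levels or between them. Aphidicolin 2 was high at -0.08 (8 cells, -0.44 to 0.16; 94.8% of the flanks). Aphidicolin 1 was low at -4.63 (8 cells, -8.29 to -3.66) and so was Aphidicolin 3 at -4.89 (8 cells, -6.53 to -3.28). Aphidicolin 4, 5 and 6 lay between, at -1.35 (-1.71 to -0.42), -1.47 (-1.60 to -0.80) and -0.94 (-4.35 to -0.18), with Aphidicolin 4 at 39.2% and Aphidicolin 6 at 52.1% of the flanks. The highest cells of Aphidicolin 4 and 6 lay within the ranges of DMSO 1 and Aphidicolin 2. Cell by cell, these embryos were thus not separate from the high ones.

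The low and the higher embryos did not overlap except for 1 cell. All 32 cells of the 4 embryos with a median under -2.5 were themselves under -2.5, the highest at -3.28. The embryos were grouped by the medians of these same cells, so the counts are a description. Here and in the next regions the DMSO cells among them had a part in the choice of bins, and only the Aphidicolin cells did not. Of the 35 cells of the other 5 embryos, 1 was under -2.5, Aphidicolin cell 68 at -4.35, and the next lowest stood at -1.71. Cell 68 belonged to Aphidicolin 6, and its flanks were at -1.11, so the flanking sequence was itself low. A second cell of that embryo, cell 69, had flanks of 0.65 and a level of -0.18.

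At the middle region the same embryos were low. DMSO 1 stood at -0.71, DMSO 2 at -5.88 and DMSO 3 at -6.10. Aphidicolin 1 and 3 were low at -7.95 and -6.28, Aphidicolin 4, 5 and 6 lay at -1.20, -1.42 and -1.18, and Aphidicolin 2 was high at -0.11. Most cells of Aphidicolin 1 had no value in these bins and were entered at -8, so its level marks the floor and not a measured depth. The flanks of this region include bins of the proximal one. All 32 cells of the 4 low embryos were again under -2.5, and of the 35 others only Aphidicolin cell 68 was, at -7.00.

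The distal core had a different set of embryos at the low level. DMSO 2 was low at -4.28 (8 cells, -5.82 to -3.55), DMSO 1 stood at -0.59 (4 cells, -0.90 to -0.45), and DMSO 3, low at the proximal core, was at -1.34 (8 cells, -1.80 to -0.95). Aphidicolin 1 and 3 were low at -3.47 and -4.41, Aphidicolin 4 and 5 stood at -1.52 and -1.56, and Aphidicolin 6 and 2 at -0.62 and -0.33. All 24 cells of the 3 low embryos were under -2.5, the highest at -2.62. Of the other 43 cells, again only Aphidicolin cell 68 was, at -4.05. The embryos under -2.5 were thus the same at both cores except for DMSO 3, which was low at the proximal core and at 39.5% of its flanks at the distal one.

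**Figure D3:**
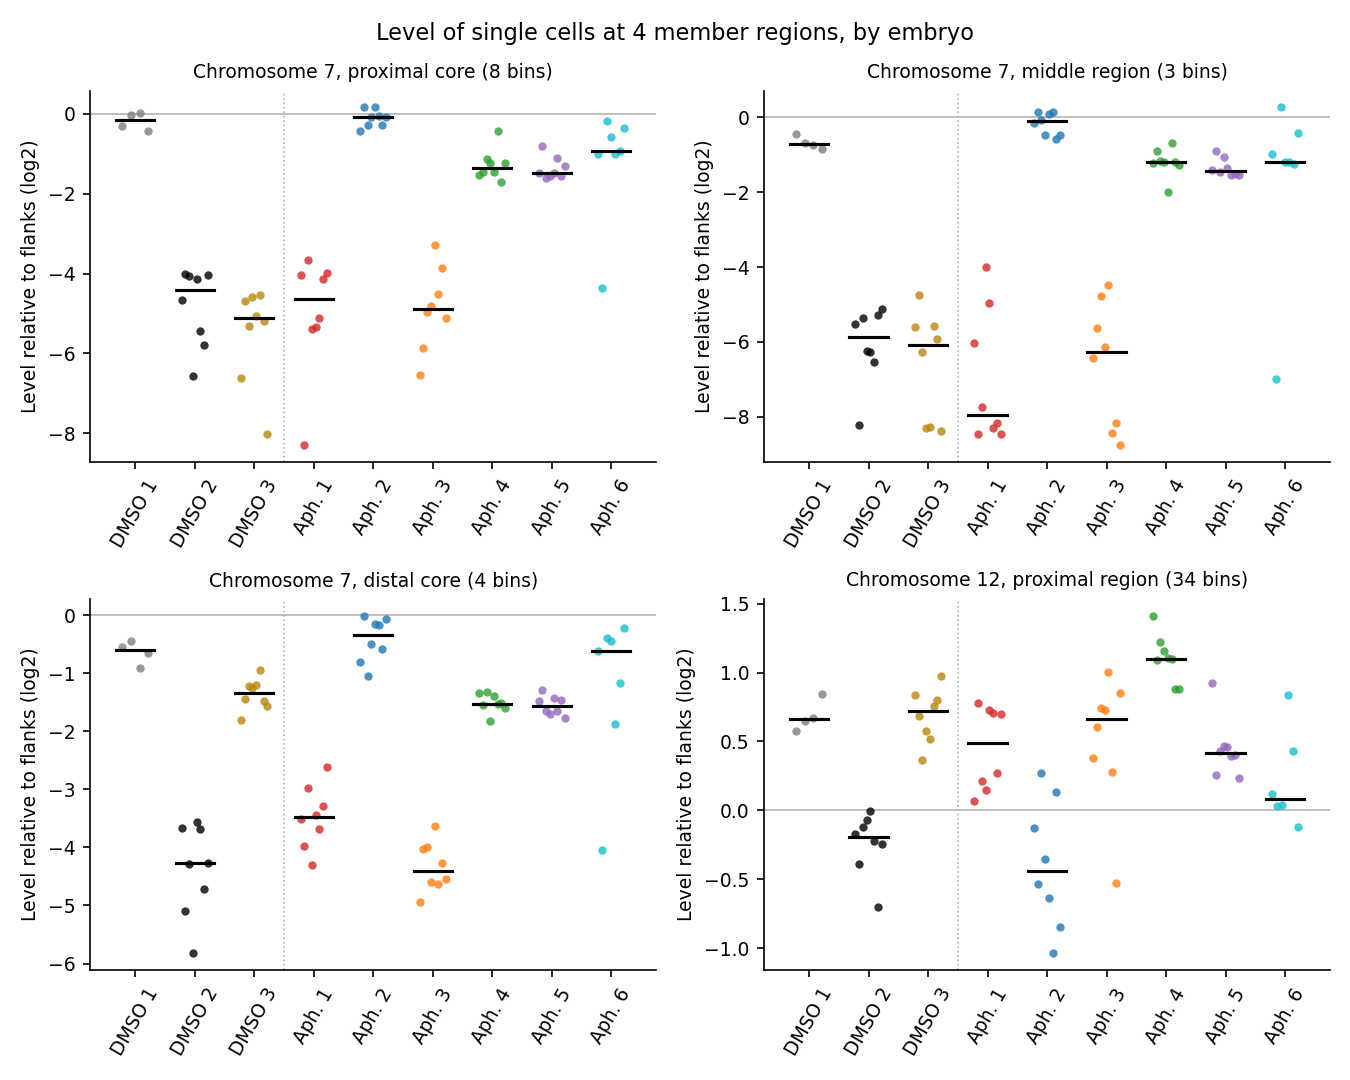
Each point is a cell and each bar the median of an embryo, with the level relative to flanks (log2) on the vertical axis and the embryo on the horizontal axis (Aph. stands for Aphidicolin), for the 3 chromosome 7 regions and the proximal chromosome 12 region. At the proximal core all 32 cells of DMSO 2, DMSO 3, Aphidicolin 1 and Aphidicolin 3 lie under -2.5, with 1 cell of another embryo, Aphidicolin cell 68, among them. The bins were chosen on the DMSO cells.

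The recovered counts show how few reads stood behind the low level. At the widest bin, where a step was 28.1, the 4 cells of DMSO 1 held between 22 and 40 steps and those of Aphidicolin 2 between 22 and 46. The low embryos held between 0 and 4 steps (DMSO 2), 0 and 1 (DMSO 3), 0 and 2 (Aphidicolin 1) and 0 and 3 (Aphidicolin 3). Aphidicolin 4 and 5, with 5 to 23 and 4 to 20 steps, did not overlap the low embryos of their treatment. The lowest cell of Aphidicolin 5 equalled the highest of DMSO 2, at 4 steps, and the highest of Aphidicolin 4 reached the high embryos. Aphidicolin 6, with 0 to 67 steps, overlapped both the low and the high embryos. In the low embryos the median at this bin rests on 1 step or none, so their levels there have no order among themselves. At the widest bin of the distal region, with a step of 5.27, DMSO 2 and Aphidicolin 3 held medians of 8 and 7 steps.

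Between the Aphidicolin embryos all 9 proximal bins were called (lowest adjusted p = 3.07e-11, limma), as were all 3 middle bins (lowest 3.07e-11) and 11 of the 12 distal bins (lowest 1.92e-13). Leaving out any 1 Aphidicolin embryo kept at least 8, 3 and 8 of these bins. On the values as deposited 8, 3 and 7 were called. In all 24 bins of the 3 regions Aphidicolin 2 was the highest of the 6.

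**Figure D4:**
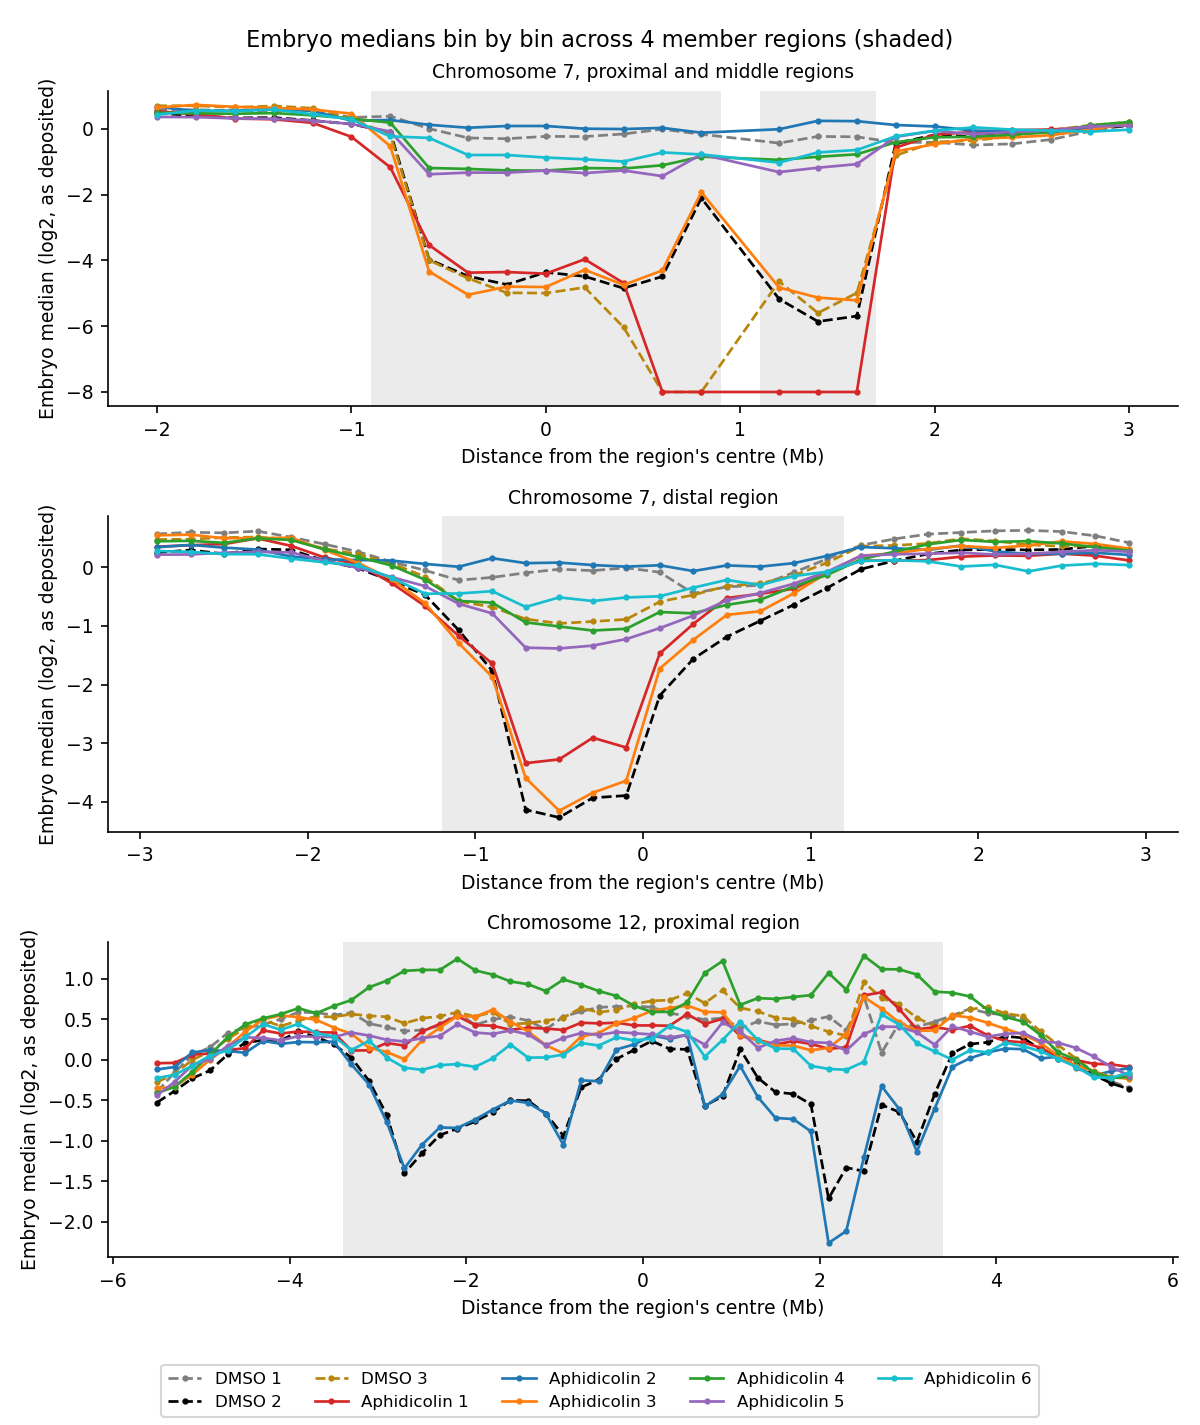
Lines give the median over the cells of each embryo, bin by bin, as deposited (log2), against distance from the centre of the region (Mb), with member bins shaded, for chromosome 7 (top and middle) and chromosome 12 (bottom); DMSO embryos are dashed, and -8 marks bins without a value in over 50% of an embryo's cells. The embryos converge within about 1 Mb on either side of each shaded region.

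The profile plot shows that the fall was limited to the shaded stretches, with the embryos together on either side. In the distal region the sides slope over about 1 Mb, the length of a window. The proximal chromosome 12 region is wider and has a different shape.

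That region, chr12:18000001-24800000, was the longest, with 34 bins and a largest DMSO range of 2.33, and 19 of its bins had a step. DMSO 1 stood at 0.66 above its flanks (4 cells, 0.58 to 0.85), DMSO 3 at 0.72 (8 cells, 0.36 to 0.97) and DMSO 2 at -0.20 (8 cells, -0.70 to -0.01), so that DMSO 2 did not overlap the others. DMSO 2 was the lowest DMSO embryo in all 34 bins, which were chosen on these DMSO values and share reads with their neighbours. Among the Aphidicolin embryos, Aphidicolin 4 was highest at 1.10 (8 cells, 0.88 to 1.41), or 215% of its flanks, and Aphidicolin 2 lowest at -0.44 (8 cells, -1.04 to 0.27), or 73.6%. Aphidicolin 3, 1 and 5 stood at 0.67 (-0.53 to 1.00), 0.49 (0.07 to 0.78) and 0.42 (0.23 to 0.93), whose cells overlapped. Aphidicolin 6 stood at 0.08 over the 6 cells whose flanks were not under -3 (-0.12 to 0.84). Its other cell, left out for its flanks, had a median of -7.39 over the region as deposited.

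By medians as deposited, Aphidicolin 4 was highest in 32 of the 34 bins and Aphidicolin 2 lowest in 32. Relative to flanks, their cells did not overlap. At chr12:23400001-23600000 the medians as deposited reached -1.71 in DMSO 2 and -2.26 in Aphidicolin 2, while Aphidicolin 4 was at 1.07. Between Aphidicolin embryos 32 of the 34 bins were called (lowest adjusted p = 2.12e-14, limma), and 28 without Aphidicolin 2 and 28 without Aphidicolin 5. The call rested on the local baseline, since on the values as deposited none of the 34 passed (lowest adjusted p = 0.0642). This region ran in another order than the chromosome 7 cores, where Aphidicolin 2 was the highest.

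Differences shared by the cells of an embryo also lay in 3 further regions, where they were smaller, and in 1 single bin. At chr4:145600001-147200000 (8 bins) DMSO 1, 2 and 3 stood at -0.71, 0.01 and 0.45, and the cell ranges of DMSO 1 (-0.74 to -0.47), DMSO 2 (-0.05 to 0.22) and DMSO 3 (0.20 to 0.65) overlapped only between the last 2. Aphidicolin 1, 4 and 6 were near each other at -0.42, -0.44 and -0.46, with every cell under 0. Aphidicolin 2, 3 and 5 had medians of 0.24, 0.25 and 0.09, but their cells spread from -0.29 to 0.51, from -0.48 to 0.59 and from -0.69 to 0.36, so single cells reached the lower embryos. All 8 bins were called (lowest adjusted p = 7.83e-04, limma). Without Aphidicolin 2, 4 were, and as deposited none was (lowest adjusted p = 1.00).

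At chr7:67000001-69400000 (12 bins) DMSO 2 was low at -0.62 (-1.17 to -0.40) and DMSO 1 and 3 stood at 0.10 and -0.20. Aphidicolin 5 was lowest at -0.50 (-0.88 to -0.13), Aphidicolin 1 next at -0.38 (-0.49 to -0.22), and Aphidicolin 6 highest at 0.15 (-0.13 to 0.29). Aphidicolin 1 and 6 did not overlap, whereas Aphidicolin 2, 3 and 4, at -0.04, -0.27 and -0.18, overlapped their neighbours. All 12 bins were called (lowest adjusted p = 1.85e-12, limma), and 6 without Aphidicolin 5 and 6 as deposited.

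At chr12:116200001-117000000 (4 bins) DMSO 3 was low at -0.73 (-1.34 to -0.29) against -0.09 in DMSO 1 and -0.28 in DMSO 2. Aphidicolin 6 was high at 0.71 over 6 cells (0.42 to 1.01), or 164% of its flanks, and Aphidicolin 1 low at -0.54 (-0.67 to -0.18), or 68.7%. The highest Aphidicolin level thus exceeded that of any DMSO embryo. The other cell of Aphidicolin 6 was left out because its flanks lay under -3. Its median over the region was -8.45 as deposited. Aphidicolin 2 stood at 0.29, Aphidicolin 3 at 0.03, Aphidicolin 4 at -0.24 and Aphidicolin 5 at -0.34. All 4 bins were called (lowest adjusted p = 3.45e-09, limma), 3 without Aphidicolin 1, and none as deposited (lowest adjusted p = 1.00).

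The single bin chr14:43200001-43400000 entered with a DMSO range near the limit, at -0.45, -0.07 and -0.08 relative to its flanks, and differed most in the Aphidicolin embryos. Aphidicolin 2 stood at -1.63 (8 cells, -2.66 to -1.34), or 32.3% of its flanks, and Aphidicolin 1 at 0.48 (8 cells, 0.15 to 0.76), or 139%. The other 4 embryos lay between -0.20 and -0.14. Single cells of Aphidicolin 3 and 4 reached -1.65 and -1.63, into the range of Aphidicolin 2. It was called with all 6 embryos (adjusted p = 1.54e-07, limma), as deposited (2.13e-04) and without Aphidicolin 2 (0.0320). Neighbouring bins outside the members had the same order: at chr14:43000001-43200000, where the DMSO medians ranged by 0.14, Aphidicolin 2 was at -3.49 and Aphidicolin 1 at 0.92 as deposited.

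**Figure D5:**
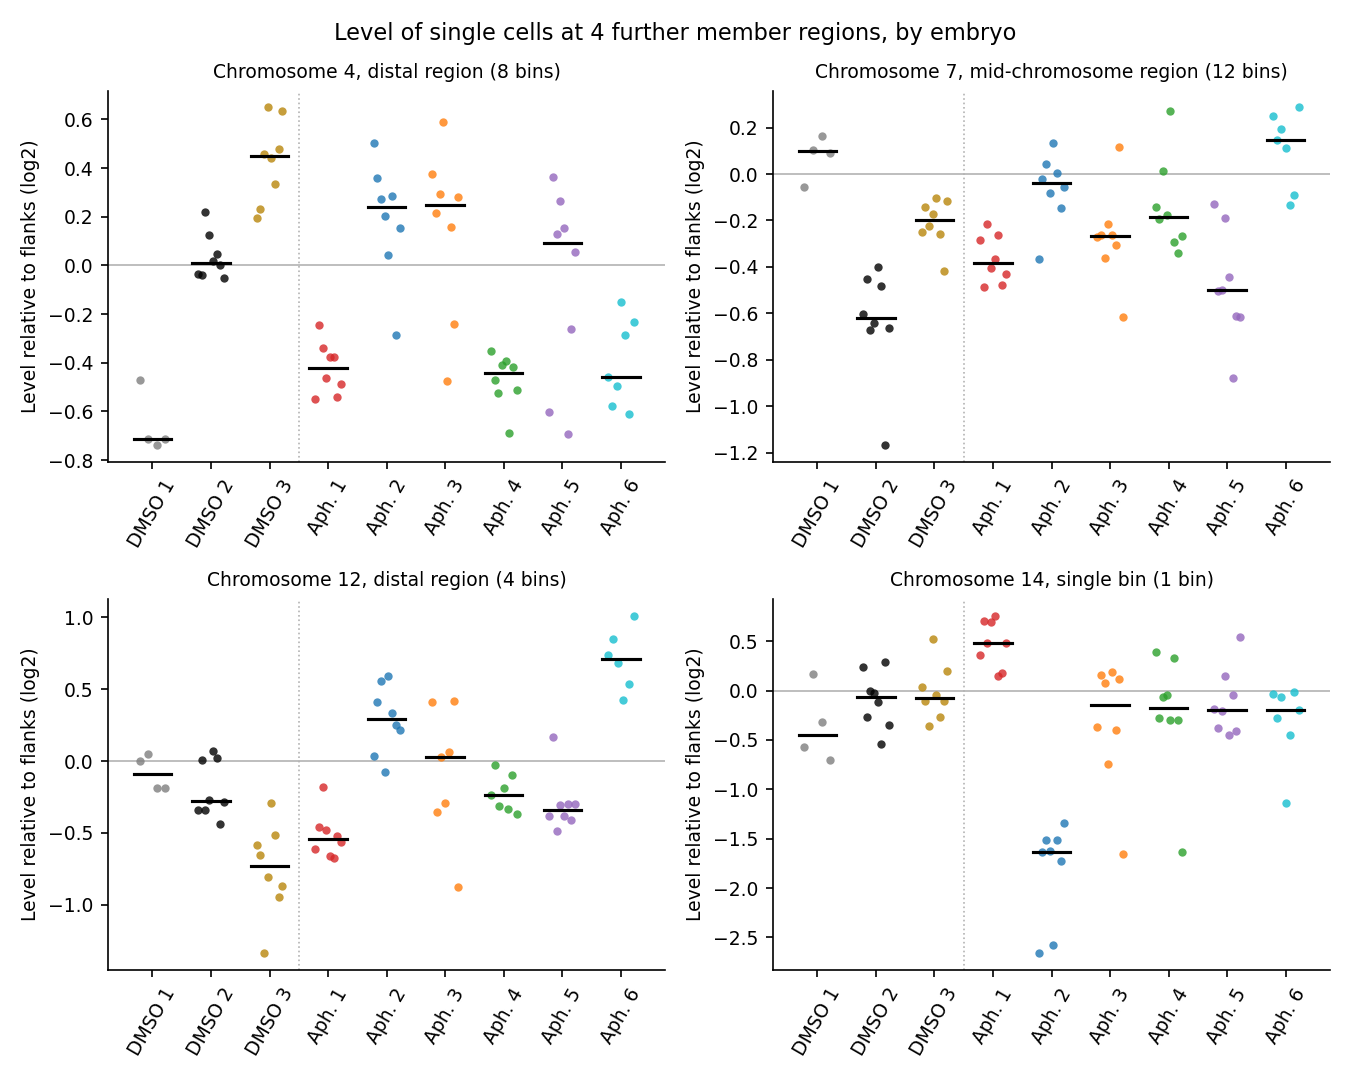
Each point is a cell and each bar the median of an embryo, with the level relative to flanks (log2) on the vertical axis and the embryo on the horizontal axis (Aph. stands for Aphidicolin), for the distal chromosome 4 region, the mid-chromosome region of chromosome 7, the distal chromosome 12 region and the chromosome 14 bin. The 8 cells of Aphidicolin 2 lie at or below -1.34 in the chromosome 14 bin. In the distal chromosome 12 region the 6 cells shown of Aphidicolin 6 lie at or above 0.42, and 1 cell with flanks under -3 is left out.

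The cell-by-cell plot of these 4 shows levels that differ between embryos by less than at the chromosome 7 cores, with cells of neighbouring embryos overlapping. Further named regions had several bins and smaller differences. All 3 bins of chr7:49000001-49600000 were called (lowest adjusted p = 1.75e-10, limma), with Aphidicolin 5 at -0.51 and Aphidicolin 3 at -0.41 the lowest and Aphidicolin 6 at 0.11 the highest. These 3 bins were called without any 1 embryo but not as deposited (lowest adjusted p = 0.367). At chr6:129600001-130800000, 5 of 6 bins were called (lowest 6.89e-04), with DMSO 2 at -0.94 below every Aphidicolin embryo (-0.42 to -0.01), and none was called as deposited (lowest 1.00).

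In the last 5 named regions with called bins, most or all calls were lost without Aphidicolin 5. Its level was the lowest of the 6 in 3 of them, -0.25 at chr3:146800001-147800000, -0.28 at chr12:93600001-95200000 and -0.42 at chr14:89000001-89400000. At chr3 4 of 5 bins were called (lowest adjusted p = 8.37e-03, limma), 2 without Aphidicolin 6 and none without Aphidicolin 5 (0.146). At the chr12 region the calls went from 8 of 8 (3.03e-06) to none (0.326), and at the chr14 region from 2 of 2 (4.21e-06) to none (0.422). At chr10:103600001-104600000, where Aphidicolin 3 was lowest at -0.24, 5 of 5 bins were called (5.01e-04) and 1 without Aphidicolin 5. At chr14:91000001-92200000, 1 of 6 bins was called (0.0290), and none without Aphidicolin 1, 2, 4 or 5, each left out alone. There Aphidicolin 5 was the highest of the 6 relative to flanks, at 0.12, but the lowest in all 6 bins as deposited.

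A last group of members consisted of single bins with large steps. At chr8:20200001-20400000, with a step of 91.2, DMSO 1 stood at -1.19 (4 cells, -2.67 to -0.66) and DMSO 2 and 3 at 0.07 and 0.04. Aphidicolin 5 and 1 were lowest at -1.13 and -0.91 and Aphidicolin 2 highest at -0.02, but the cells of Aphidicolin 1 ran from -1.81 to -0.35 and those of Aphidicolin 2 from -1.40 to 0.91, and 1 cell of Aphidicolin 5 reached 0.45. Each cell of DMSO 1 held between 2 and 7 steps there. The embryos did not pass the test (adjusted p = 0.420, limma).

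At chr16:2600001-2800000, with a step of 103, the DMSO levels were -1.68, -1.04 and -0.53. The Aphidicolin levels were between -1.62 and -0.77, and the cells of Aphidicolin 4 alone spread from -3.54 to 0.25. The adjusted p between Aphidicolin embryos was 0.638 (limma). In these bins the spread within an embryo was as wide as the range between embryos.

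Whether an Aphidicolin embryo stood at a control level was also counted. In each region the DMSO levels were split at their largest gap into a low and a high set, and an embryo within 0.25 of a set was placed at that level. Aphidicolin embryos were found at both levels in 32 of the 85 regions, of which 25 were among the 73 regions whose control levels were not over 0.5 apart. There the allowed margins overlap, and 59 regions had at least 1 embryo that could be placed at either level and was counted at neither. In the 12 regions (79 bins) with control levels over 0.5 apart, 7 had Aphidicolin embryos at both levels. Taken bin by bin over all autosomes, 61 of the 77 bins with such a gap (79.2%) had both levels, but 60 of the 77 are members themselves, so this share is no separate background.

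Of these 12 regions, 6 (69 bins) held a bin called between Aphidicolin embryos and 6 (10 bins) held none. The 7 with both levels were the proximal and distal regions of chromosome 7 and the proximal region of chromosome 12, which held called bins, and 4 which did not, on chromosomes 6 (2 regions), 8 and 16. In 3 of the 12 no Aphidicolin embryo stood at the low level and in 2 none at the high level. At chr13:68200001-68800000, DMSO 3 was low at -0.46 and all 6 Aphidicolin embryos, between -0.13 and 0.39, were placed at the high level. Its 3 bins were called (lowest adjusted p = 6.23e-04, limma), but none was without Aphidicolin 1 (0.0737). An embryo stood between the levels in 6 regions and beyond them in 5.

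The treatments themselves were compared on embryo medians, 3 against 6. No member (0%) passed an adjusted p of 0.05 (limma, Benjamini-Hochberg), as no bin of the 12017 did, and the lowest adjusted p of any bin was 0.112. With DMSO 1 to 3 against Aphidicolin 1 to 3 alone, 22 members (8.8%) passed, beside 13% of all bins. At an unadjusted p under 0.05 there were 41 members (16.4%) and 2749 bins overall (22.9%). The median difference, Aphidicolin minus DMSO, was 0.11 over the members and 0.01 over all bins, and 197 members (78.8%) and 6324 of all bins (52.6%) were higher in Aphidicolin. Since the members were chosen on the DMSO values, these differences and the error of the test both hold values that the choice used, and nothing is read from their direction.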

How the data were processed

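The deposited tables hold log2 read densities of 67 cells, set relative to the median of each cell by the authors, on mm9 per the submitters' processing notes. The sources used here give neither aligner nor read filters. The deposited metadata name each cell's embryo, with a noise score and pass marks (scores of 1 or 0, per the file headers). Counts were recovered from the values within a tolerance of 0.01.

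The members, lists and tests were chosen with earlier results of these data known. Regions named are the 10 with the most bins, the 10 with the widest DMSO range and the 10 with the lowest adjusted p between Aphidicolin embryos; the chromosome 13 region was named after its values were seen. Local baselines were running medians within 15 Mb, leaving out bins within 1 Mb, and values with a baseline under -3 were dropped. limma 3.58.1 (R 4.3.3) gave the F-test (robust empirical Bayes) and the treatment test, checked on simulated data; medians and ranges used Python 3.11.15. Alternatives changed the baseline, flanks, tolerance, missing value, covariate and embryos. No genes are named, because no annotation of mm9 was used here.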

Additional observations from a re-analysis of the deposited data

Results flagged for a closer look

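The level of Aphidicolin 2 at the chromosome 14 bin, -1.63 relative to its flanks, stood far from the other 5 Aphidicolin embryos, by a Dixon gap test at the 95% level. The 17 named regions were tested this way in the Aphidicolin embryos, and chance singles out about 1 in 20 groups that were not chosen on their values. This bin was named for its low adjusted p between the same embryos (limma). That rate therefore does not hold for it, and the flag adds no separate evidence. In 10 bins of the same stretch Aphidicolin 2 was more than 0.4 below every other embryo.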

How the results depend on the processing

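Setting missing values to -6 kept all 250 members, but the choice depended on the embryos and the baseline: 148 of the 250 were chosen again on values relative to the local baseline, and between 97 (without DMSO 2) and 187 (without DMSO 1) when a DMSO embryo was left out, with 129 without DMSO 3. The members called between Aphidicolin embryos (154) came to 25 as deposited and to between 90 (without Aphidicolin 5) and 159 when an embryo was left out; without a covariate, with a 5 Mb baseline, missing values left out, an adjusted p of 0.01 or standard empirical Bayes they came to between 124 (beside 10.5% of all bins, adjusted p of 0.01) and 195 (beside 34.7%, no covariate). The 159 without Aphidicolin 3 stood beside 26.5%. Regions with Aphidicolin embryos at both control levels (32) came to 10 at a tolerance of 0.4. They came to 27 with flanks of 5 Mb and to 41 on the values as deposited. With an embryo left out they came to between 19 (without Aphidicolin 5) and 32. Where control levels were over 0.5 apart, the 7 regions came to between 5 and 8 under alternatives chosen after seeing the data. The treatment count was 0 as deposited, with missing values left out and without any 1 embryo. Embryo numbers 1 to 3 occur in both treatments, but no source ties equal numbers, and their deviations from the treatment means did not go together (correlations over bins of -0.54, -0.29 and -0.01). Over these 6 embryos, a choice made after seeing the data, 22 members passed with no replicate block and 0 with the number as a block (limma, 3331 bins overall at an unadjusted p under 0.05). Windows with large steps hold few steps per cell, which limits what their low levels show.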
